A study of Homo sapiens with 4 samples.

Results

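The 5 thrombospondin genes (THBS1, THBS2, THBS3, THBS4 and COMP) and CD47, which encodes a receptor of thrombospondin 1, were followed in U118-MG cells with and without added SPNS2. All 6 genes were found by symbol among the 61806 genes of the count table, and 5 of them had enough reads to be tested. The group of genes was chosen by its counts in this very comparison, in which THBS1 stood out. Their own values are therefore given as a description. Their calls in the fit over all genes are listed once, beside the share called among all genes, and support nothing.

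U118-MG is an established human glioma line. Both groups were infected with a pCDH-CMV-MCS-EF1-puro lentiviral vector: the NC group (2 libraries) with the negative control form and the SPNS2 group (2 libraries) with the form that carries the SPNS2 cDNA. The genotype label is WT for all 4 libraries, and whether the infected cells were a pool or a clone is not given in the sources used here. Whether the libraries of a group stem from separate cultures is not stated, so the p-values below measure only the spread between these libraries, which may be technical.

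Thrombospondins are secreted, calcium-binding glycoproteins that sit in the extracellular matrix and on cell surfaces. THBS1 and THBS2 form trimers and carry type 1 repeats, the modules that bind CD36 and, in THBS1, activate latent TGF-beta. THBS3, THBS4 and COMP form pentamers and lack those repeats. CD47 binds the C-terminal part of thrombospondin 1 and is also the ligand of SIRPA, the receptor through which it restrains phagocytes. In glioma, thrombospondin 1 is known for effects on vessels, invasion and TGF-beta activity.

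The libraries held 31353373 to 34125159 counts, and SPNS2 itself was read 42 and 47 times in NC and 7381 and 8224 times in SPNS2. Of 9 glioma and astrocyte markers, 4 had a mean of at least 1 CPM (the count divided by the TMM-scaled library size in units of 1000000). VIM was at 4041 to 6827 CPM, CD44 at 335 to 421 CPM, SOX9 at 65.4 to 83.5 CPM and NES at 10.1 to 20.3 CPM. The astrocyte marker GFAP was at 0 to 0.238 CPM, and S100B had no counts in any library. The platelet markers PF4, PPBP and GP9 and the cartilage markers ACAN and COL2A1 had no counts in any library, and the sum of the 4 endothelial markers was 4.27 to 6.83 CPM.

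The stretches before the start sites of the 4 genes that carry most of the reads are shown first. They let the letters GGAATG, the core of the site bound by TEAD factors, be compared between THBS1, which differed most between the groups, and the others. Each line holds the 250 bases before a start site in RefSeq (GRCh38.p14), on the strand of the gene. Capitals mark GGAATG or its reverse complement.
THBS1: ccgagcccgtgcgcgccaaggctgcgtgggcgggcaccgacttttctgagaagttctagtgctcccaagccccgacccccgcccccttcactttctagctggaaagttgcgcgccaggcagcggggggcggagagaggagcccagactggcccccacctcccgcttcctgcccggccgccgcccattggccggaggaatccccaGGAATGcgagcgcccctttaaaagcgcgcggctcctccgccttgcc
THBS2: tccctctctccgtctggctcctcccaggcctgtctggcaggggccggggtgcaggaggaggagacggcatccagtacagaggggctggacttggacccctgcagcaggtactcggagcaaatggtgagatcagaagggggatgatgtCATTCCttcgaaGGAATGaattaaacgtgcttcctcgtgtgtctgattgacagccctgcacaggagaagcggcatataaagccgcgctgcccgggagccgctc
THBS3: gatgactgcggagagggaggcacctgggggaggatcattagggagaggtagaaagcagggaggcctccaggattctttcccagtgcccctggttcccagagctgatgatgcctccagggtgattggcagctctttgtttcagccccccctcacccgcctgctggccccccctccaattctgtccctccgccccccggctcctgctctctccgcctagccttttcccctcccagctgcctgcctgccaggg
CD47: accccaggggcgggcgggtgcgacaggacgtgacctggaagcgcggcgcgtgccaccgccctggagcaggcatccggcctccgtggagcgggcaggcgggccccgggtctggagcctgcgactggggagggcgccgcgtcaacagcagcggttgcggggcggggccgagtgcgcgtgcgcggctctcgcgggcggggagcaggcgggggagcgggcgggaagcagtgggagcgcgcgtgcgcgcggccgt
The THBS1 stretch (chr15:39580829-39581078, plus strand) has 1 match, whose first printed base lies 46 bases before the start. The THBS2 stretch (chr6:169253847-169254096, minus strand) has 2 in opposite orientation, at 103 and 91 bases before the start. The first listed THBS3 start (chr1:155207898-155208147, minus strand), its other start and CD47 (chr3:108091032-108091281, minus strand) have none, and COMP has 1. Of 35116 promoter stretches of the same length, searched on both strands, 11.9% hold these letters.

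Other short motifs were searched in the same way on both strands. THBS1 holds GGGCGG, the GC box, at 4 places and CCAAT at 1, letters found in 42.6% and 32.0% of all stretches. CD47 holds 6 GC boxes, 2 of which overlap, and its stretch is 79.6% G and C against 69.6% for THBS1. THBS2 alone among the 6 genes holds TATAAA, present in 10.7% of all stretches. None of the 6 genes holds the AP-1 letters TGANTCA, which 6.57% of stretches do. The E-box CACGTG, in 6.34% of stretches, was found at 1 start of THBS4. A match is a description of the letters and no evidence of binding.

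THBS1 (ENSG00000137801) spans chr15:39581079-39599466 on hg38, plus strand, and its transcripts cover 9158 bases of exon in GENCODE 29. Its counts were 4076 and 4095 in NC against 60173 and 65799 in SPNS2. The scaled levels were 127 and 122 CPM in NC and 1955 and 1972 CPM in SPNS2. Both SPNS2 libraries were far above both NC libraries, and the libraries of each group lay close together. The log2 fold change was 3.98 (SE 0.049), and it ranged from 3.95 to 4.01 when 1 library was left out. THBS1 took 0.0129% and 0.0124% of all counts in NC and 0.192% and 0.193% in SPNS2. Ranked per length among 19838 protein-coding genes, it stood at places 3228 and 3357 in NC and at 111 and 102 in SPNS2.

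Higher fold changes were found for 203 of the 17853 tested genes. By mean level, 1714 genes lay above THBS1 in NC and 31 in SPNS2. In the plot of log2 fold change against mean level, THBS1 stands by itself at the upper right.

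**Figure D1:**
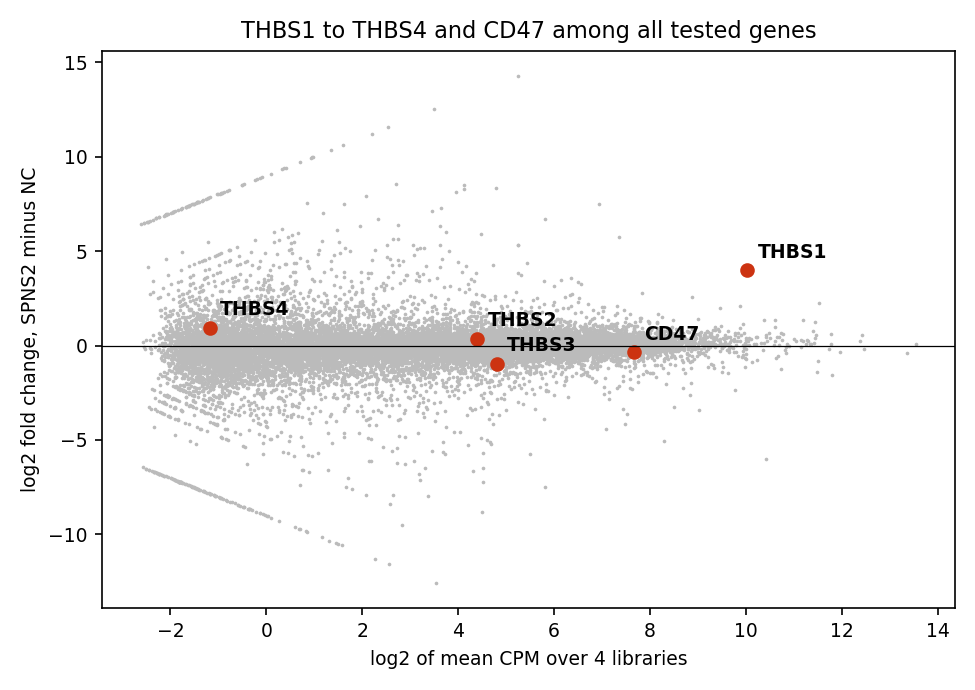
The x axis is the log2 of the mean CPM over 4 libraries and the y axis the log2 fold change of SPNS2 minus NC; grey dots are all 17853 tested genes and red dots THBS1 (3.98), THBS2 (0.37), THBS3 (-0.97), THBS4 (0.93) and CD47 (-0.35). THBS1 lies apart from the other abundant genes, while the other 4 lie within the main cloud.

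The RNA annotated inside a THBS1 intron on the same strand, THBS1-IT1, was read 21 and 16 times in NC and 261 and 261 times in SPNS2 (log2 fold change 3.84, SE 0.26, edgeR adjusted p = 0.00302). Its reads cannot be told from unspliced THBS1 transcripts, with which they share a strand. The antisense gene THBS1-AS1 had 5 and 10 counts in NC and 19 and 3 in SPNS2. FSIP1, which runs across THBS1 on the opposite strand, had 69 and 93 counts in NC and 99 and 95 in SPNS2 (edgeR adjusted p = 0.45). Both have far fewer reads than THBS1. The strand setting of the counting is not given, so sense and antisense reads cannot be told apart.

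THBS2 (ENSG00000186340, chr6:169215780-169254044, minus strand), the closest relative of THBS1 in domain makeup, was read 586 and 620 times in NC and 779 and 735 times in SPNS2. The mean level was 18.4 ± 0.103 CPM in NC against 23.7 ± 2.32 CPM in SPNS2 (SD, n = 2). Both SPNS2 libraries were above the NC libraries, by a small margin. The log2 fold change was 0.37 (SE 0.12), with a range of 0.28 to 0.47 when 1 library was left out. Its antisense gene THBS2-AS1 had 153 and 131 counts in NC and 108 and 113 in SPNS2 (log2 fold change -0.33, edgeR adjusted p = 0.331).

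**Figure D2:**
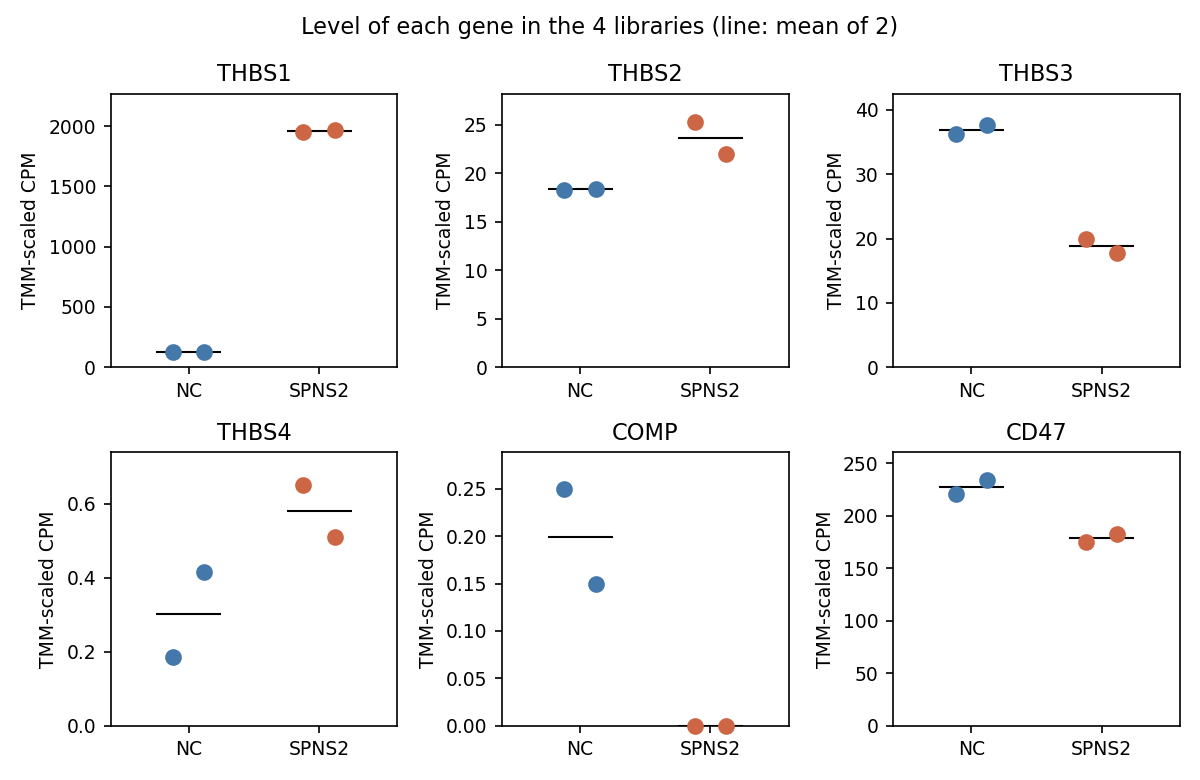
Each panel shows 1 gene, with TMM-scaled CPM on a y axis that starts at 0 and the NC and SPNS2 groups on the x axis; points are libraries and lines are means of 2. THBS1 has means of 124 CPM in NC and 1963 CPM in SPNS2, THBS3 and CD47 are lower in both SPNS2 libraries, and COMP is at 0 in both.

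THBS3 (ENSG00000169231, chr1:155195588-155209051, minus strand), a pentamer-forming thrombospondin without type 1 repeats, differed in the other direction. It was read 1161 and 1270 times in NC and 613 and 594 times in SPNS2, or 36.2 and 37.7 against 19.9 and 17.8 CPM. Both SPNS2 libraries were well below both NC libraries. The log2 fold change was -0.97 (SE 0.11), which is 1.96-fold lower, and it ranged from -1.04 to -0.89 when 1 library was left out. Of the genes that overlap it, THBS3-AS1 had 17 to 26 counts per library, and the mitochondrial import gene MTX1, which runs the other way from near the THBS3 start and overlaps it there, had a log2 fold change of -0.08 (edgeR adjusted p = 0.781).

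THBS4 and COMP were close to the limit of detection. THBS4 (ENSG00000113296, chr5:79991311-80083287, plus strand), a thrombospondin of muscle, tendon and nervous tissue, had 6 and 14 counts in NC and 20 and 17 in SPNS2. Over the groups these are 20 and 37 counts, a scaled ratio of 1.89 (95% exact counting interval 1.07 to 3.45, counting error only). The log2 fold change was 0.93 (SE 0.61) and was 0.47 when NC replicate 1 was left out and 1.61 without NC replicate 2. The gene lies on 5q, where the median log2 fold change of the tested genes was 0.43, and was at 0.50 with that median removed. COMP (ENSG00000105664, chr19:18782773-18791314, minus strand), the thrombospondin of cartilage matrix, had 8 and 5 counts in NC and 0 in both SPNS2 libraries. With 3 counts as the floor of the whole SPNS2 group it was at least 4.23-fold lower, and it had too few reads to be tested. Of 4 chondrocyte markers, SOX5 was at 53.4 and 57.1 CPM in NC and 19.9 and 19.1 CPM in SPNS2, and the other 3 were at 0 or near it. Its part in the COMP values was not tested.

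CD47 (ENSG00000196776, chr3:108043094-108091862, minus strand), the receptor, was read 7085 and 7877 times in NC and 5380 and 6102 times in SPNS2. Its levels were 221 and 234 CPM in NC and 175 and 183 CPM in SPNS2. Both SPNS2 libraries were below both NC libraries. The log2 fold change was -0.35 (SE 0.063), 1.27-fold lower, with a range of -0.39 to -0.30 when 1 library was left out. In bulk RNA, fewer cells with a transcript and less transcript per cell cannot be told apart, for CD47 as for the other genes.

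By the edgeR test across all genes, 1 of the 6 genes was called higher (THBS1) and 2 were called lower (THBS3 and CD47), while THBS2 and THBS4 were not called. Of all 17853 tested genes 23.4% were called, 12.1% higher and 11.3% lower. Since the comparison served to choose the genes, nothing is read from their count. The call of CD47 was lost in 5 of 12 alternative fits, with the replicate block and in each of the 4 fits that left out a library.

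Levels per length (RPKM, scaled CPM per kilobase of exon) give the order of the genes within a group. In NC, CD47 was highest at 27.7 ± 1.12 RPKM (SD, n = 2), then THBS1 at 13.6 ± 0.421, THBS3 at 8.0 ± 0.233 and THBS2 at 2.86 ± 0.016 RPKM. THBS4 and COMP followed at 0.0655 ± 0.0351 and 0.0642 ± 0.023 RPKM and did not differ beyond their spread. In SPNS2, THBS1 came first at 214 ± 1.34 RPKM and CD47 second at 21.7 ± 0.698 RPKM. THBS3 at 4.08 ± 0.323 and THBS2 at 3.69 ± 0.361 RPKM overlapped between libraries there, whereas with the length of the longest transcript they were at 5.89 and 4.07 RPKM. The ratio of THBS1 to CD47 was 0.517 and 0.467 in NC, and 10.0 and 9.68 in SPNS2.

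The makeup of thrombospondin RNA differed between the groups. The 5 thrombospondins summed to 24.7 and 24.5 RPKM in NC and 222 and 223 RPKM in SPNS2. THBS1 made up 55.3% ± 1.35 of that sum in NC and 96.4% ± 0.328 in SPNS2. The share of THBS3 was 32.6% ± 1.16 in NC and 1.84% ± 0.15 in SPNS2, and that of THBS2 11.6% ± 0.141 and 1.66% ± 0.167 (SD, n = 2). The sum without THBS1 was 11.0 ± 0.261 RPKM in NC and 7.9 ± 0.706 RPKM in SPNS2.

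**Figure D3:**
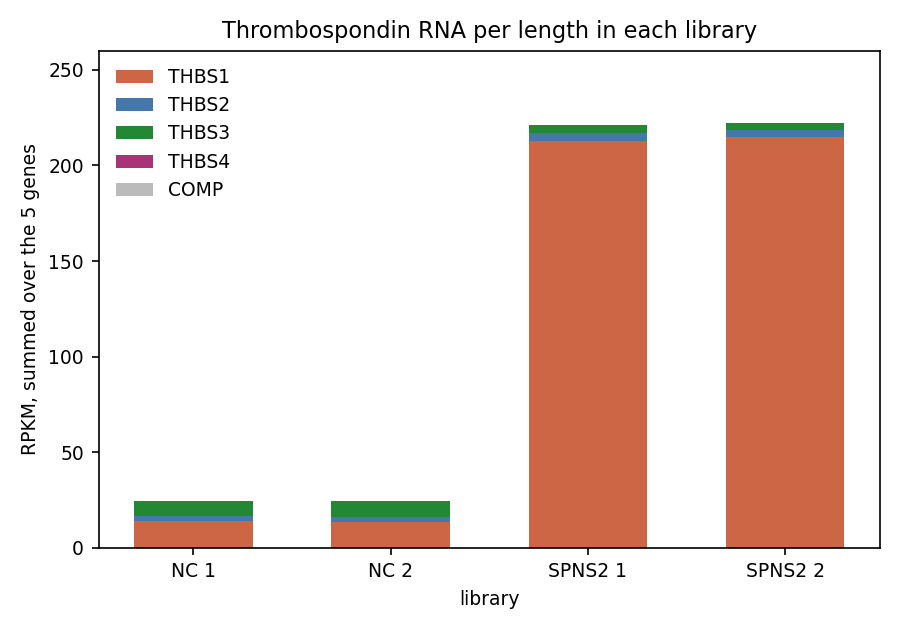
Bars show RPKM summed over the 5 thrombospondin genes in each library, on a y axis that starts at 0, with 1 colour per gene. The NC bars reach 24.7 and 24.5 and the SPNS2 bars 222 and 223 RPKM, nearly all of it THBS1; THBS4 and COMP are too low to be visible.

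Of the 50-base words in the annotated transcripts, none was shared between any pair of the 6 genes. THBS2 shared none with any other gene. THBS1 shared 5.1% of its 9243 words, chiefly with FSIP1 and its antisense gene THBS1-AS1. THBS3 shared 14.1% of 5217, with MTX1 and its antisense gene THBS3-AS1.

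Neighbouring genes were examined next. Of 78 tested protein-coding genes within 500 kb of any of the 6, 7 rose and 3 fell by the edgeR test. Of all tested genes 12.1% were called higher and 11.3% lower, which is the background for this count and those of each gene below. The median log2 fold change of the neighbours was -0.01 against -0.009 for all tested genes. Beside THBS1, 2 of 5 rose, EIF2AK4, a stress kinase of translation (log2 fold change 0.35, edgeR adjusted p = 0.0218), and SRP14 of the signal recognition particle (0.54, edgeR adjusted p = 0.0198). EIF2AK4 was not called with any 1 library left out (edgeR adjusted p = 0.0523 to 0.101), and SRP14 was called only without NC replicate 2 (0.0366) among these 4 fits. GPR176, an orphan receptor gene whose start lies 339.8 kb from that of THBS1, was at 184 and 34.6 CPM in NC and 212 and 200 CPM in SPNS2 and did not pass (edgeR adjusted p = 0.45). Without NC replicate 1 its log2 fold change was 2.57 (edgeR adjusted p = 0.00946).

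By edgeR, 0 of the 5 tested neighbours of THBS2 passed, with values from -0.35 to 0.34, among them WDR27, C6orf120 and PHF10. The count was also 0 at an unadjusted p under 0.05 and with DESeq2 or limma-voom. Beside THBS3, 2 of 28 rose: FDPS, an enzyme of isoprenoid synthesis (log2 fold change 0.99, edgeR adjusted p = 0.00361), and the cell cycle gene CKS1B (0.69, 0.0249). By edgeR 0 fell there, against 1 at an unadjusted p under 0.05, 1 with DESeq2 and 0 with limma-voom. CKS1B was lost without NC replicate 1, NC replicate 2 or SPNS2 replicate 2 (edgeR adjusted p = 0.0539 to 0.0885). MUC1, a mucin gene 2672 bases from THBS3, was at 8.48 and 4.22 CPM in NC and 1.95 and 2.49 CPM in SPNS2 and did not pass (edgeR adjusted p = 0.0653). It passed with DESeq2 (adjusted p = 0.0109) and without NC replicate 2 (edgeR adjusted p = 0.0413). Next to THBS4, 1 of 7 rose. The nearest, MTX3, 46 bases away, did not pass (log2 fold change -0.23, edgeR adjusted p = 0.118). With chromosome arm medians removed it was called lower (-0.66, edgeR adjusted p = 0.0122), and 0 of the 7 were higher and 3 lower in that fit. The gene that rose in the main fit was SERINC5 (log2 fold change 0.60, edgeR adjusted p = 0.018). SERINC5 was no longer called with the 5q median removed (0.17, edgeR adjusted p = 0.269). Its log2 fold change ranged from 0.53 to 0.68 with 1 library left out. Next to COMP, 3 of 28 fell: the coactivator gene CRTC1, the RNA decay helicase gene UPF1 and the stress cytokine gene GDF15 (log2 fold changes -0.58, -0.39 and -1.73, edgeR adjusted p = 0.0198, 0.0177 and 0.03). CRTC1 and UPF1 were lost with any 1 library left out (edgeR adjusted p = 0.0529 to 0.0827). GDF15 was lost without NC replicate 1, NC replicate 2 or SPNS2 replicate 2 (0.0653 to 0.106).

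Near CD47, 2 of 5 rose, the transcription factor gene BBX (0.52, edgeR adjusted p = 0.0377) and CIP2A, an inhibitor of the phosphatase PP2A (0.51, 0.0108), while IFT57 did not pass (-0.14). BBX was lost without NC replicate 2, SPNS2 replicate 1 or SPNS2 replicate 2 (edgeR adjusted p = 0.0759 to 0.112), and CIP2A without NC replicate 2 or SPNS2 replicate 2 (0.0589 and 0.0526). Over all 78 neighbours, 6 were higher and 0 lower without NC replicate 1, 2 and 1 when NC replicate 2 was left out, 5 and 2 without SPNS2 replicate 1, and 1 and 0 without SPNS2 replicate 2. SRP14, FDPS, CKS1B, GDF15 and CIP2A were named after their values were seen.

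**Figure D4:**
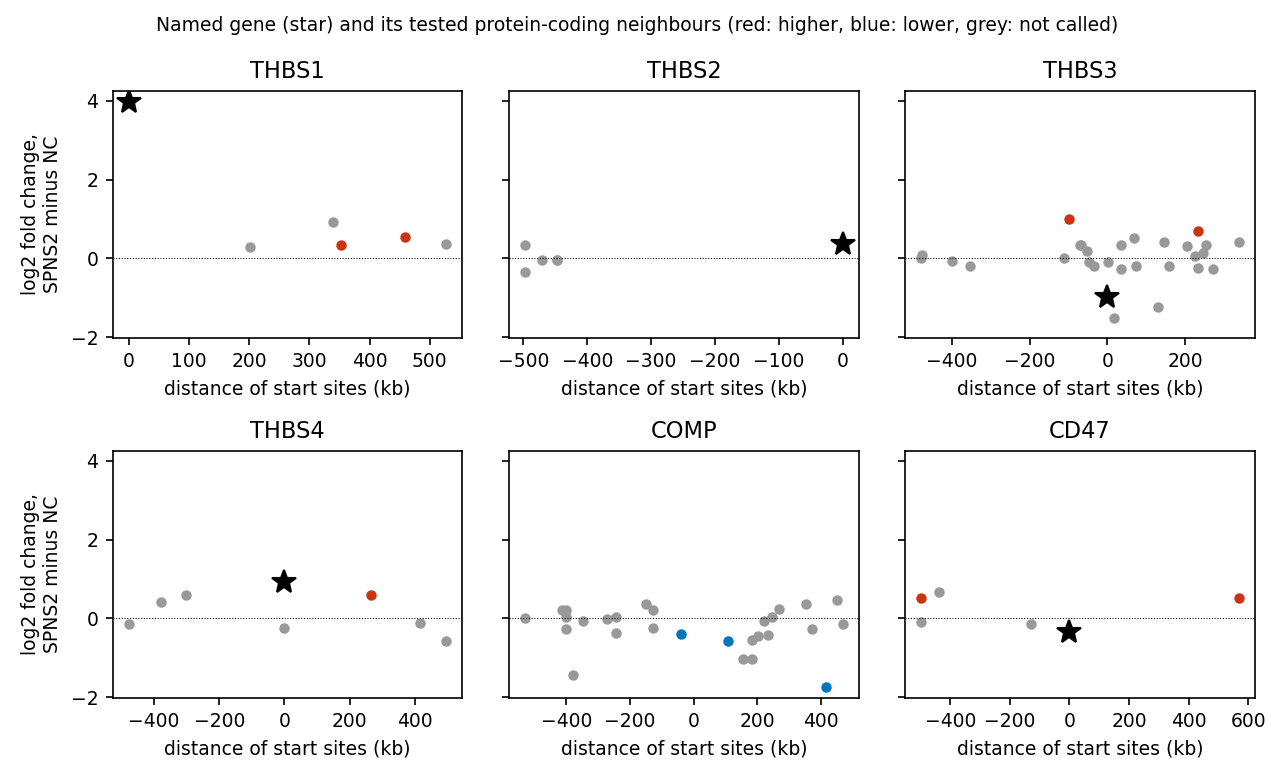
Each panel shows 1 gene as a star and its tested protein-coding neighbours as dots, with the distance between start sites in kb on the x axis (positive downstream of the named gene) and the log2 fold change of SPNS2 minus NC on the y axis. THBS1 stands at 3.98 over neighbours between 0.30 and 0.92; COMP has no star because it was not tested.

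The receptors of thrombospondins were divided between both directions. Of 20 tested receptor genes 5 rose, 7 fell and 8 were not called. Their median log2 fold change was -0.18, and the all-gene median of -0.009 and the shares called above are the background for this and the other lists. Leaving out any 1 of the 4 libraries gave 4 to 5 higher and 1 lower. Of the listed integrin chains, ITGA3, ITGA5, ITGA6 and ITGB1 rose and ITGAV fell. ITGA4 (log2 fold change -0.14, edgeR adjusted p = 0.214) and ITGB3 were not called. ITGA3 was at 455 and 470 CPM in NC and 988 and 931 CPM in SPNS2 (log2 fold change 1.05, edgeR adjusted p = 0.00186). ITGA6 rose by the same 1.05 (edgeR adjusted p = 0.00266), and ITGB1, their shared beta chain, from 1389 ± 25.1 to 2097 ± 31.5 CPM (edgeR adjusted p = 0.00275). The syndecan SDC1, a heparan sulfate carrier that binds the N-terminal part of thrombospondins, rose 1.88-fold (edgeR adjusted p = 0.00851).

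Other receptors fell or were not called. The largest falls that were called were those of NLGN1 (2.13-fold, edgeR adjusted p = 0.0136) and VLDLR (1.98-fold, 0.0391). CACNA2D1 fell 1.47-fold (edgeR adjusted p = 0.0218) and PTPRJ 1.43-fold (0.0296). NLGN1, VLDLR, CACNA2D1 and PTPRJ were named after their values were seen. CD36, the receptor of the type 1 repeats on vessel cells, had 18 and 29 counts in NC and 7 and 7 in SPNS2 and did not pass (log2 fold change -1.69, edgeR adjusted p = 0.092). ITGAV, a chain of RGD-binding integrins, was at 284 and 289 CPM in NC and 233 and 225 CPM in SPNS2 and fell (log2 fold change -0.33, edgeR adjusted p = 0.0204). ITGB3, its partner, was low at 3.18 to 4.64 CPM and did not pass (edgeR adjusted p = 0.499). LRP1, the endocytic receptor that clears thrombospondins, fell from 1080 ± 58.3 to 875 ± 15.7 CPM (edgeR adjusted p = 0.0255). CALR, which forms a receptor complex with LRP1, fell 1.17-fold (edgeR adjusted p = 0.0499).

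The lower calls of ITGAV, LRP1 and CALR were fragile, while their log2 fold changes kept their sign with 1 library left out. They then ranged from -0.34 to -0.30 for ITGAV, -0.36 to -0.25 for LRP1 and -0.27 to -0.16 for CALR. Fewer genes were called lower in those fits among all tested genes too. ITGAV was not called with any 1 library left out (edgeR adjusted p = 0.0622 to 0.0937). LRP1 was lost without NC replicate 1, SPNS2 replicate 1 or SPNS2 replicate 2 (edgeR adjusted p = 0.0672 to 0.0898), CALR with any library left out (0.0631 to 0.168) and with DESeq2 (0.0741). With chromosome arm medians removed, ITGAV and LRP1 were at -0.18 and -0.18 and not called (adjusted p = 0.0882 and 0.0892).

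On the side of CD47, its partner SIRPA showed the clearest difference. SIRPA was read 3403 and 3388 times in NC and 854 and 911 times in SPNS2, or 106 and 101 against 27.7 and 27.3 CPM. All NC values lay well above all SPNS2 values, 3.76-fold lower (log2 fold change -1.91, edgeR adjusted p = 0.00111). SIRPA is also a leukocyte gene: the sum of 4 leukocyte markers, nearly all CD68, was at 130 and 111 CPM in NC and 76.7 and 66.5 CPM in SPNS2, and PTPRC was at 0 to 0.297 CPM. The part of leukocyte genes in the SIRPA values was not tested. GUCY1B1, a subunit of the soluble guanylate cyclase whose signalling thrombospondin 1 blocks through CD47, was at 9.87 ± 2.4 CPM in NC and fell to 2.28 ± 0.548 CPM in SPNS2 (edgeR adjusted p = 0.0142). PRKG1, the kinase that cyclic GMP activates, rose 1.67-fold (edgeR adjusted p = 0.0134). QPCTL, the enzyme that modifies the SIRPA-binding end of CD47, was at 12.6 and 15.2 CPM in NC and 16.0 and 16.9 CPM in SPNS2 and did not pass (edgeR adjusted p = 0.315). Of 15 tested genes in this list 4 rose, 3 fell and 8 were not called (median 0.04). Every fit on 3 libraries gave 1 to 2 higher and 1 to 2 lower. GUCY1B1 was lost without NC replicate 1 (edgeR adjusted p = 0.0538) or SPNS2 replicate 2 (0.0526), and PRKG1 without NC replicate 2, SPNS2 replicate 1 or SPNS2 replicate 2 (0.0519 to 0.0598).

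Genes of the storage, release and receptors of TGF-beta, which thrombospondin 1 can activate from its latent form, changed in both directions. Of 18 tested, 2 rose, 8 fell and 8 were not called, with a median of -0.26. Those that rose were LTBP2 (3.14-fold, edgeR adjusted p = 0.00867) and the receptor gene TGFBR2 (1.44-fold, 0.00667). The latent TGF-beta binding protein gene LTBP1 fell from 1510 and 1380 CPM to 772 and 778 CPM (edgeR adjusted p = 0.00285), and FBN1, the fibrillin to which such proteins attach, fell 2.38-fold (edgeR adjusted p = 0.00111). The proteoglycan gene DCN was at 609 ± 131 CPM in NC and fell to 18.6 ± 3.99 CPM in SPNS2 (edgeR adjusted p = 0.00186). ITGB8, a chain of another TGF-beta activating integrin, fell 2.2-fold (edgeR adjusted p = 0.00266). Of the ligands, TGFB2 fell from 25.3 ± 1.19 to 13.9 ± 0.202 CPM (edgeR adjusted p = 0.0112), a call lost with any 1 library left out (0.0507 to 0.0588). TGFB3, the least abundant ligand, fell from 4.84 ± 1.05 to 0.708 ± 0.239 CPM (edgeR adjusted p = 0.0125). TGFB1 was at 80.1 and 108 CPM in NC and 128 and 102 CPM in SPNS2, with overlapping groups (edgeR adjusted p = 0.337). LTBP2, TGFBR2 and TGFB3 were named after their values were seen. Fits on 3 libraries gave 2 higher and 5 to 6 lower, the 5 without NC replicate 1.

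The target genes of TGF-beta did not move in a single direction. Of 23 tested, 4 rose, 7 fell and 12 were not called (median -0.15). PMEPA1, a feedback inhibitor of the pathway, was read 28 and 23 times in NC and 371 and 377 times in SPNS2 (log2 fold change 3.90, edgeR adjusted p = 0.00224). The matrix genes of the list were divided. TGFBI, COL3A1 and TNC fell 4.6-, 9.2- and 1.74-fold (edgeR adjusted p = 0.00359, 0.00304 and 0.00138), and POSTN fell 2.74-fold (0.00408). COL1A1 rose 1.36-fold (edgeR adjusted p = 0.00475), while COL1A2 and FN1 were not called (0.967 and 0.148). POSTN, COL1A1, COL1A2 and FN1 were named after their values were seen. The sum of 4 fibroblast and smooth muscle markers, 3 of them at a mean of at least 1 CPM and most of it COL1A1, was 1454 and 1412 CPM in NC and 1961 and 1925 CPM in SPNS2. Their part in the values of the matrix genes here and in the lists that follow was not tested.

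Other proteins with thrombospondin type 1 repeats changed in both directions. Of 39 tested, 12 rose, 9 fell and 18 were not called (median 0.38). ADAMTS1, a protease that cuts thrombospondin 1 and 2 and is named for their repeats, was at 1000 and 1021 CPM in NC and 468 and 465 CPM in SPNS2, 2.17-fold lower (edgeR adjusted p = 0.00111). ADAMTS15 fell 37.1-fold (edgeR adjusted p = 0.000929) and the netrin receptor UNC5B 5.53-fold (edgeR adjusted p = 0.00153). CCN1, a matricellular protein, rose with a log2 fold change of 2.76 (edgeR adjusted p = 0.000929). Without SPNS2 replicate 1 or SPNS2 replicate 2, 7 were higher, and the lower count was 4 without NC replicate 1 and 5 when NC replicate 2 was left out.

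**Figure D5:**
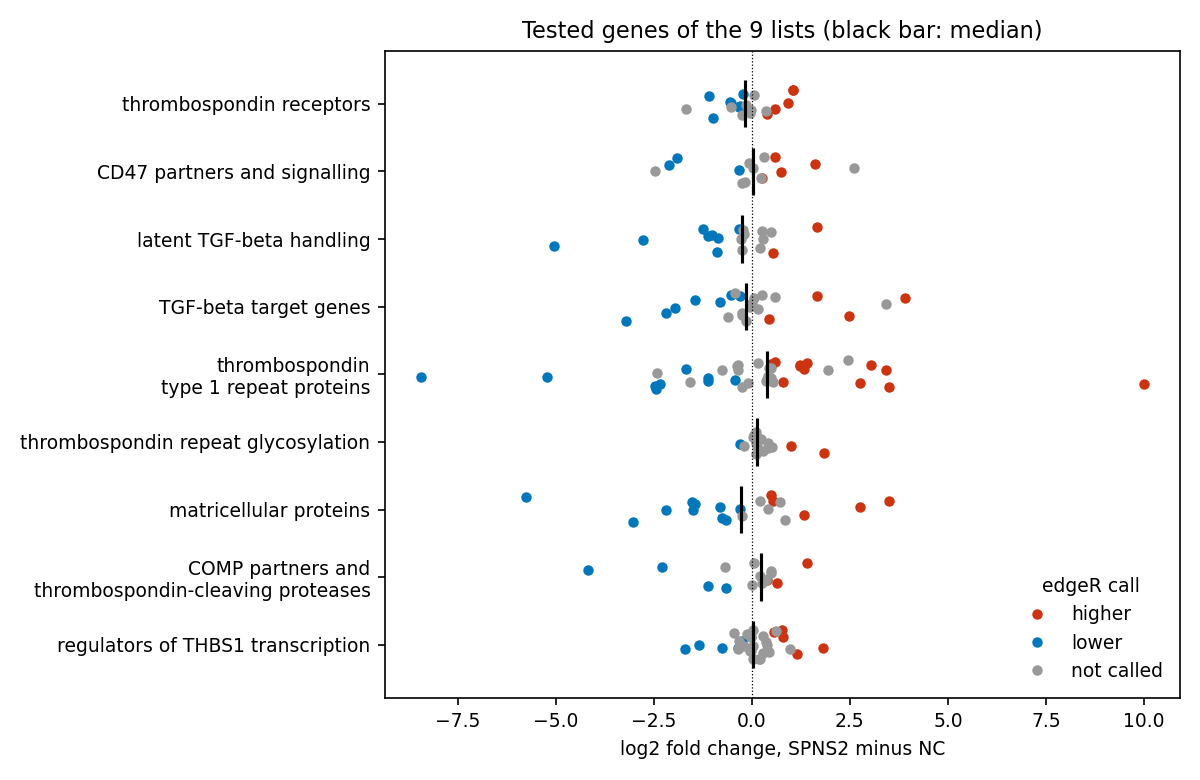
Each dot is a tested gene of 1 of the 9 lists, with the log2 fold change of SPNS2 minus NC on the x axis, coloured by the edgeR call; black bars are medians, from -0.28 to 0.38. The outermost points on either side, SEMA5B and RSPO4, have no counts in 1 group, so their positions depend on the fit's prior count.

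Matricellular proteins, the class of matrix-bound signalling proteins to which thrombospondins belong, had 5 of 20 tested genes higher, 10 lower and 5 not called (median -0.28). CCN1, given above, is among those that rose. TNXB, a tenascin, was at 92.8 and 84.2 CPM in NC and fell to 1.75 and 1.53 CPM in SPNS2 (edgeR adjusted p = 0.000592). The lower count was 5 without NC replicate 2 and 4 without SPNS2 replicate 2.

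Of 15 tested genes of repeat glycosylation and its sugar supply, 2 rose, 1 fell and 12 were not called (median 0.13). This share of 3 in 15 is near the 23.4% called among all tested genes. POFUT2, the enzyme that adds O-fucose to these repeats, was at 49.5 and 53.7 CPM in NC and 52.2 and 53.5 CPM in SPNS2 (edgeR adjusted p = 0.789). B3GLCT, which extends that fucose with glucose, was at 20.5 and 19.3 CPM in NC and 27.1 and 25.3 CPM in SPNS2 (edgeR adjusted p = 0.0642, DESeq2 adjusted p = 0.0354). DPY19L2, a relative of the C-mannosyltransferases, and GMDS, an enzyme of GDP-fucose synthesis, rose (log2 fold changes 1.84 and 0.99, edgeR adjusted p = 0.0214 and 0.0229), while POFUT1, the O-fucosyltransferase of EGF repeats, fell (-0.30, edgeR adjusted p = 0.0343). Fits by edgeR on 3 libraries gave 0 higher without NC replicate 1 or SPNS2 replicate 1, 1 higher in the other fits and 0 lower in each, against 3 to 4 higher and 1 lower at an unadjusted p under 0.05. With all 4 libraries DESeq2 called 3 higher and 1 lower.

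Partners of COMP and proteases that cut thrombospondins had 3 of 16 tested genes higher, 4 lower and 9 not called (median 0.24). COL14A1, a fibril-associated collagen, fell 18.1-fold and MATN2, a matrilin, 4.91-fold (edgeR adjusted p = 0.00059 and 0.00126). ADAMTS12, a protease that cuts COMP, rose from 37.0 to 98.5 CPM (edgeR adjusted p = 0.00162). Fits on 3 libraries gave 2 to 4 higher and 4 lower.

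Factors reported to act on THBS1 transcription were divided as well. Of 31 tested, 5 rose, 5 fell and 21 were not called (median 0.04). EGR1, an immediate early factor, was at 20.2 ± 2.54 CPM in NC and rose to 71.5 ± 9.05 CPM in SPNS2 (edgeR adjusted p = 0.00425), and SRF, a factor of actin and growth genes, rose 1.73-fold (edgeR adjusted p = 0.00994). ATF3, KLF4 and HIF1A fell 3.25-, 2.55- and 1.69-fold (edgeR adjusted p = 0.00512, 0.00186 and 0.00234). The coactivator gene YAP1 fell 1.19-fold (edgeR adjusted p = 0.0373), a call lost with any 1 library left out (0.0899 to 0.15), and its log2 fold change was 0.14 with the arm medians removed. WWTR1, which encodes TAZ, did not pass (edgeR adjusted p = 0.249). Leaving out any library gave 4 to 5 higher and 3 lower.

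Among the genes whose levels over the 4 libraries most resembled those of THBS1 were IL1B, DMKN, SLC1A3 and PMEPA1, by Euclidean distance between centred log2 CPM (0.21 to 0.26) among 11413 genes whose mean reached 5 CPM. These 4 are far less abundant, with 0.778 to 2.66 CPM in NC and 11.7 to 38.5 CPM in SPNS2. IL1B encodes an inflammatory cytokine and SLC1A3 a glutamate transporter of astrocytes. The closest to THBS3 were SVEP1, SMIM14, PKIA, KLHL5 and 1 gene without a symbol, at distances of 0.038 to 0.061. With 4 libraries in 2 groups, this likeness is mainly one of the size of the group difference.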

How the data were processed

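RNA of 4 U118-MG libraries was measured by sequencing. The authors deposited whole-number counts for each gene, with no normalization. The submitters' processing notes name Trim Galore 0.6.9, HISAT2 2.2.1, featureCounts 0.3 and hg38. Annotation and strand setting were not given in the sources used here, so reads of overlapping genes cannot be assigned with certainty. A further row, 1 line of annotation text, was left out.

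The 6 genes and the 9 gene lists were chosen with earlier results of these data known. Genes were kept by filterByExpr (minimum count 10, minimum total 15), scaled by TMM and compared by the two-sided quasi-likelihood test of edgeR 4.0.16 in R 4.3.3 with the group as the only term. A call is a Benjamini-Hochberg adjusted p under 0.05 over all 17853 tested genes. The SE is the log2 fold change divided by the square root of F. Named genes were the 6 genes, up to 4 of each list with the smallest p, 20 genes fixed by name, the 3 nearest tested neighbours and the 5 genes most like THBS1 and THBS3; some of these are not reported here. Positions and exon lengths came from GENCODE 29 (17382 tested genes matched) and promoters from RefSeq GRCh38.p14. A fold against no counts used a floor of 3 counts over the group. The test was tested on simulated counts. Alternatives were DESeq2 1.42.0, limma-voom (limma 3.58.1), a replicate block, RLE factors, library totals, removal of chromosome arm medians, leaving out each library, a cutoff of 1 CPM on the mean and no filter.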

Additional observations from a re-analysis of the deposited data

How the results depend on the processing

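With the replicate number as a block, 1039 genes were called higher and 937 lower, against 2161 and 2010 without it. Over all tested genes, same-numbered libraries did not deviate together (correlation -0.0778), and with 2 pairs the numbers are not known to pair samples. Single genes went either way. TEAD1 was at 133 and 263 CPM in NC and 140 and 364 CPM in SPNS2, and MYC at 5.68 and 34.4 CPM against 52.5 and 9.29 CPM. Under the block 1 of the 6 genes was called lower (THBS3), neighbours had 3 higher and 0 lower, receptors 4 lower, CD47 partners 2 higher, glycosylation enzymes 1 higher and 0 lower, matricellular proteins 6 lower and THBS1 regulators 3 lower. With DESeq2, 7 neighbours were lower. With arm medians removed, neighbours had 6 lower, receptors 4 lower, COMP partners and proteases 5 higher and THBS1 regulators 3 lower.

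With 1 library left out, 950 to 1093 genes were called higher and 762 to 1051 lower. Of the 6 genes, 1 was higher and 1 lower each time. Higher and lower calls ranged from 1 to 6 and 0 to 2 for neighbours, 4 to 5 and 1 to 1 for receptors, 1 to 2 and 1 to 2 for CD47 partners, 2 to 2 and 5 to 6 for latent TGF-beta, 4 to 5 and 5 to 5 for its targets, 7 to 8 and 4 to 8 for repeat proteins, 0 to 1 and 0 to 0 for glycosylation, 4 to 5 and 4 to 8 for matricellular proteins, 2 to 4 and 4 to 4 for COMP partners, and 4 to 5 and 3 to 3 for THBS1 regulators.

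The log2 fold changes of some uncalled genes changed sign. POFUT2 was at -0.02 with library totals and -0.14 with arm medians removed, where WDR27 was at 0.12, C6orf120 at 0.11 and PHF10 at 0.10. YAP1, called lower, was at 0.14 there. On 3 libraries POFUT2 ranged from -0.02 to 0.09, MYC from -1.09 to 2.44, WDR27 from -0.37 to 0.24, C6orf120 from -0.14 to 0.06, PHF10 from -0.10 to 0.00 and MTX1 from -0.24 to 0.10. The log2 fold changes of THBS1, THBS2, THBS3, THBS4 and CD47 kept their sign in every fit that tested them. Those of THBS1 moved to 3.92 with library totals and 4.19 with arm medians removed. Low counts limit THBS4 and COMP. The cause of these shifts was not tested.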

Other observations

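MYC, among the listed THBS1 regulators, varied more within the groups than between them. It was at 5.68 and 34.4 CPM in NC and 52.5 and 9.29 CPM in SPNS2, so the groups overlapped and the edgeR test did not call it (log2 fold change 0.62, SE 1.1, adjusted p = 0.737). The receptor gene GPR176 beside THBS1 was likewise at 34.6 CPM in NC replicate 2 and at 184 to 212 CPM in the other 3 libraries.

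Of the tested genes with type 1 repeats, RSPO4 and SEMA5B were read in only 1 group. RSPO4, an R-spondin that supports Wnt signalling, had 0 counts over the NC libraries and 252 over the SPNS2 libraries, at least 86.0-fold higher with 3 counts per group as the floor. The semaphorin SEMA5B had 87 counts in NC and 0 in SPNS2, at least 28.3-fold lower. Both were chosen after their values were seen.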
